A study of Mus musculus with 14 samples.

Results

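The transcripts of 10 genes of bone morphogenetic protein (BMP) signaling, Bmp2, Bmp4, Bmp6, Acvrl1, Eng, Smad6, Smad7, Id1, Id2 and Id3, were followed in liver sinusoidal endothelial cells (LSECs) after acute liver injury. They were chosen by gene symbol and are 10 of 54524 genes in the count table, each found once by its Ensembl identifier in the GENCODE vM21 annotation. LSECs were sorted from livers of male Balb/c mice, 10 to 12 weeks old per the labels (the study's methods give an older range), and their RNA was sequenced in bulk. There were 4 healthy samples, 2 samples at day 1, 4 at day 3 and 4 at day 7 after 1 intraperitoneal injection of carbon tetrachloride (CCl4, 0.5 µL per g in mineral oil), a solvent that kills hepatocytes around the central veins. The healthy mice were not injected, so effects of CCl4 and of the injected oil cannot be told apart. Cells were gated as CD32+, F4/80-, without UV autofluorescence and without propidium iodide, and the study's methods add CD45-. Day 1 has 2 samples because the others failed on RNA quality per the methods. No genetic change is named for any group.

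BMPs are secreted ligands that bring type I and type II receptor kinases together at the cell surface, and the type I receptor then phosphorylates SMAD proteins that enter the nucleus and switch genes such as the Id genes on. SMAD6 and SMAD7 are made in response and block the receptors or the SMADs, so that they act as feedback inhibitors. In the liver, LSECs are known as the main source of BMP2 and BMP6, which act on hepatocytes to induce hepcidin and so control iron, and LSECs themselves respond to BMP9 (encoded by Gdf2) and BMP10 through ALK1 (Acvrl1) and its co-receptor endoglin (Eng).

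Library totals ran from 46401496 to 103912264 counts, and values are given below as CPM, counts scaled to the size of the library after TMM normalization. The LSEC label held in every sample, with Stab2 at 947 to 2363 CPM, Lyve1 at 271 to 3397 CPM and Fcgr2b (CD32b) at 1380 to 3397 CPM. The summed level of 12 LSEC markers was 18402 to 21915 CPM in healthy samples and 13311 and 16452 CPM at day 1. Day 3 samples had sums of 11308 to 16395 CPM and day 7 samples of 10969 to 15654 CPM, and every injured sample lay below every healthy one. The 12 markers did not move together. EdgeR called 2 higher and 2 lower at day 1, 1 higher and 2 lower at day 3, and 0 at day 7. The shares of all genes tested that were called in either direction were 4.06, 7.19 and 3.18%. Lyve1 was at 3020 and 3397 CPM at day 1 against 271 to 534 CPM in healthy samples. Day 3 replicates 1 and 2 stood apart from day 3 replicates 3 and 4, with 34678 and 34768 against 28203 and 22986 genes detected, and with 12745 and 7894 against 1517 and 1400.3 CPM summed over 10 monocyte and neutrophil markers. Healthy replicate 4 carried 11026 CPM of 10 hepatocyte markers, against 329 to 549 CPM in the other healthy samples. The same sum was 191 and 256 CPM at day 1, 1193 to 3878 CPM at day 3 and 1152 to 8854 CPM at day 7. Every day 3 and day 7 sample thus lay above all healthy samples but replicate 4, and the part of hepatocyte RNA was not tested. In bulk samples, fewer cells of a type and less RNA per cell cannot be told apart.

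SMAD proteins bind the short sites GTCT or AGAC, the palindrome GTCTAGAC that joins both, and, for the BMP SMADs with SMAD4, the GC-rich motif GGCGCC. These letters were searched on both strands in the RefSeq promoter entries (GRCm38.p6, 250 bases before to 50 after a gene start), of which 6 of the 10 genes had one that was used. The palindrome was found in 70 of 32851 entries (0.213%), the GC-rich motif in 3898 (11.9%) and a short site in 28903 (88.0%), so a short site by itself sets no gene apart. The sequences below are shown because among these entries the palindrome is in that of Smad6 and the GC-rich motif in that of Id2, with Eng, a receptor gene, and Bmp4, a ligand gene, set beside them. The RefSeq start equals the start of the GENCODE gene span for Smad6, Eng and Bmp4, but that of Id2 lies 1048 bases inside the span, so the Id2 letters shown are not upstream of the whole gene. Capitals mark the motifs, positions are counted from the RefSeq start with no position 0, and a match is a description of the letters and not a site shown to be bound.
Smad6, chr9:64022056-64022159, minus strand, position -100 to 4, palindrome from -4 to 4: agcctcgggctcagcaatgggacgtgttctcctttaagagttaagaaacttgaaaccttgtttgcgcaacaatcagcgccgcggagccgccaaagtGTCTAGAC
Id2, chr12:25096308-25096333, minus strand, position -241 to -216, GC-rich motif from -231 to -226: aggccccctgGGCGCCcagcgcacac
Eng, chr2:32646345-32646594, plus strand, position -250 to -1, short sites at -213 and -127: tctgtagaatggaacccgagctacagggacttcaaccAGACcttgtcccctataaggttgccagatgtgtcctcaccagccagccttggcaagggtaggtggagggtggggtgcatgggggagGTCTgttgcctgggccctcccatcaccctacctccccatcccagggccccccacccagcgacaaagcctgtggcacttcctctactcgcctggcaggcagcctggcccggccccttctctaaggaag
Bmp4, chr14:46390670-46390919, minus strand, position -250 to -1, short site at -222: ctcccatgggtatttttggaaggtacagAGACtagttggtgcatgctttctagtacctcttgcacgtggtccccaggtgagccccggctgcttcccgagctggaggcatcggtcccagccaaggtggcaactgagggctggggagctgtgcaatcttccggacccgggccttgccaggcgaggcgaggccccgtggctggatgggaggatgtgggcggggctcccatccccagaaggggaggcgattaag

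Levels of different genes were compared only as CPM per kb of exon. In healthy LSECs, Id3 was the highest of the 10 genes at 627 ± 48.7 CPM per kb (SD, n = 4), and Bmp2 followed at 578 ± 59.7 CPM per kb with overlapping samples. Id2 (317 ± 68.5), Eng (238 ± 50.8) and Id1 (215 ± 42.3 CPM per kb) came next, and each overlapped its neighbour in this order. Smad6 (81.6 ± 10.1), Bmp6 (44.6 ± 4.31), Smad7 (22.9 ± 2.69) and Acvrl1 (16.3 ± 2.44 CPM per kb) were each apart from the gene above and below. Bmp4 was near the bottom of what was measured, at 0.794 ± 0.330 CPM per kb, from 90 to 238 counts per sample. At day 1 Bmp2 held the first place at 413 ± 40.1 CPM per kb (n = 2) with Id3 at 343 ± 61.7 CPM per kb, and these overlapped. At day 7 Id3 (466 ± 55.7 CPM per kb, n = 4) and Bmp2 (318 ± 29.1 CPM per kb) were apart, and Smad7 (24.4 ± 1.92 CPM per kb) stood above Bmp6 (21.2 ± 2.98 CPM per kb) with overlapping samples. At day 3 the samples of every neighbouring pair overlapped, except that Bmp4 (1.42 ± 0.541 CPM per kb) stayed apart from Acvrl1 (9.50 ± 3.67 CPM per kb).

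**Figure D1:**
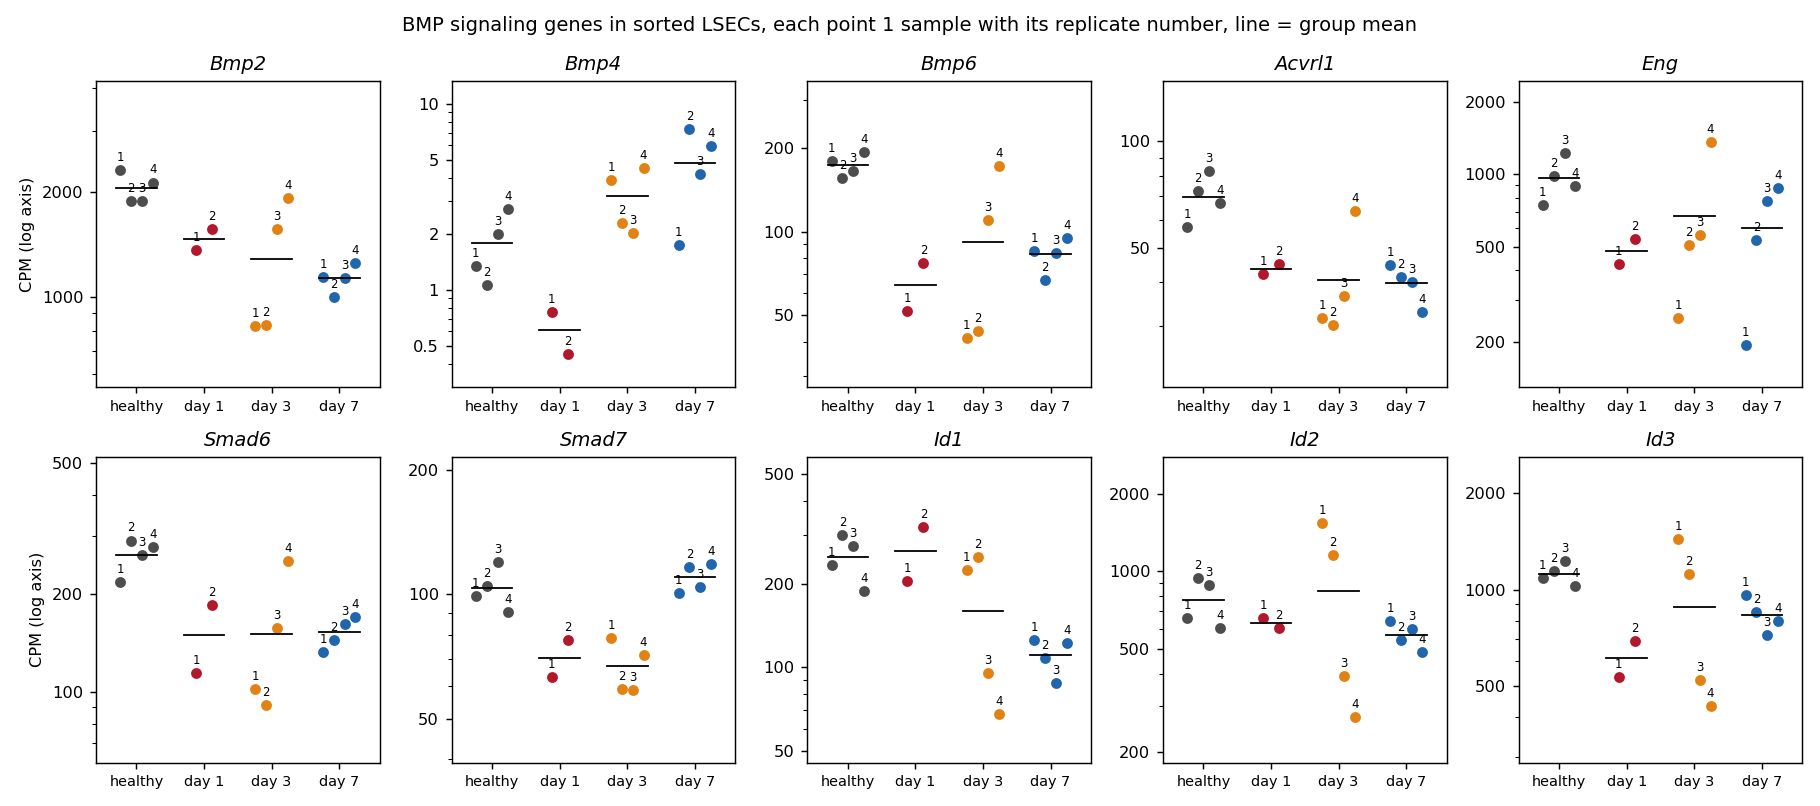
CPM (log axis) of the 10 genes in each of the 14 samples, grouped as healthy, day 1, day 3 and day 7, with the replicate number above each point and a line at the group mean. Smad7 at day 3 lies between 58.9 and 78.7 CPM, below every healthy sample, and day 3 replicates 1 and 2 part from replicates 3 and 4 for Bmp2, Bmp6, Id1, Id2 and Id3.

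Set against healthy LSECs, the 10 genes leaned low at each day, but edgeR made 1 call in all, Smad7 at day 3. At day 1, 9 of the 10 genes had a log2 fold change below 0 (51.7% of all 26626 genes tested did) and 8 of the 10 had both day 1 samples below all 4 healthy samples (17.9% of all genes tested). None passed an adjusted p of 0.05 in edgeR's quasi-likelihood test, which called 4.06% of all genes. Unadjusted p was under 0.05 for 6 of them (17.9% of all genes), DESeq2 called 2, Bmp6 and Smad7 (12.0% of all genes it tested), and limma-voom 5 (16.2%). At day 3, 8 of 10 were below 0 (40.9% of all genes), 1 of 10 had all samples below the healthy ones (6.84% of all genes), and 1 was called lower (2.58% of all genes). At day 7, 8 of 10 were below 0 (48.9% of all genes) and 6 of 10 had every sample below the healthy ones (12.1% of all genes). EdgeR called none of them (3.18% of all genes called), with 6 at an unadjusted p under 0.05 (21.1% of all genes), 4 called by DESeq2 (10.6%) and 7 by limma-voom (26.5%). Beside this, the summed level of 10 monocyte and neutrophil markers was 4282 to 9737 CPM at day 7 against 546 to 1484 CPM in healthy samples. Of these markers, 6 had every day 7 sample above every healthy one, as did 2322 of all 26626 genes tested. EdgeR called 1 of these markers higher, beside 582 of all genes, and their part was not tested. Between day 3 and day 1 edgeR called none of the 10 BMP genes (2.54% of all genes called), with 1 at an unadjusted p under 0.05 (15.8%), 1 called by DESeq2 (9.42%) and 3 by limma-voom (12.6%). The median log2 fold change of the 10 genes was -0.74, -0.64 and -0.74 at days 1, 3 and 7, beside -0.03, 0.18 and 0.02 over all genes tested. With library sizes taken from the 12 LSEC markers in place of TMM, a scaling chosen after seeing the data, the median of all genes moved to 0.23, 0.60 and 0.43. Some of these markers were themselves called higher or lower after injury, as given above. Under this scaling edgeR called none of the 10 genes against healthy, and Smad7 at day 3 was no longer called (-0.20, adjusted p = 0.575 by edgeR). Id2 at day 1 and Id3 at day 3 were no longer below 0. The lean of the 10 genes was smaller than with TMM. At day 3 Bmp2, Bmp6, Acvrl1, Eng, Smad6 and Id1 were at -0.37, -0.68, -0.44, -0.27, -0.50 and -0.11, with Bmp4, Id2 and Id3 above 0. At day 7 the same 6 were at -0.46, -0.68, -0.38, -0.28, -0.37 and -0.75, Id2 and Id3 at -0.02 and -0.002, and Bmp4 and Smad7 above 0.

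**Figure D2:**
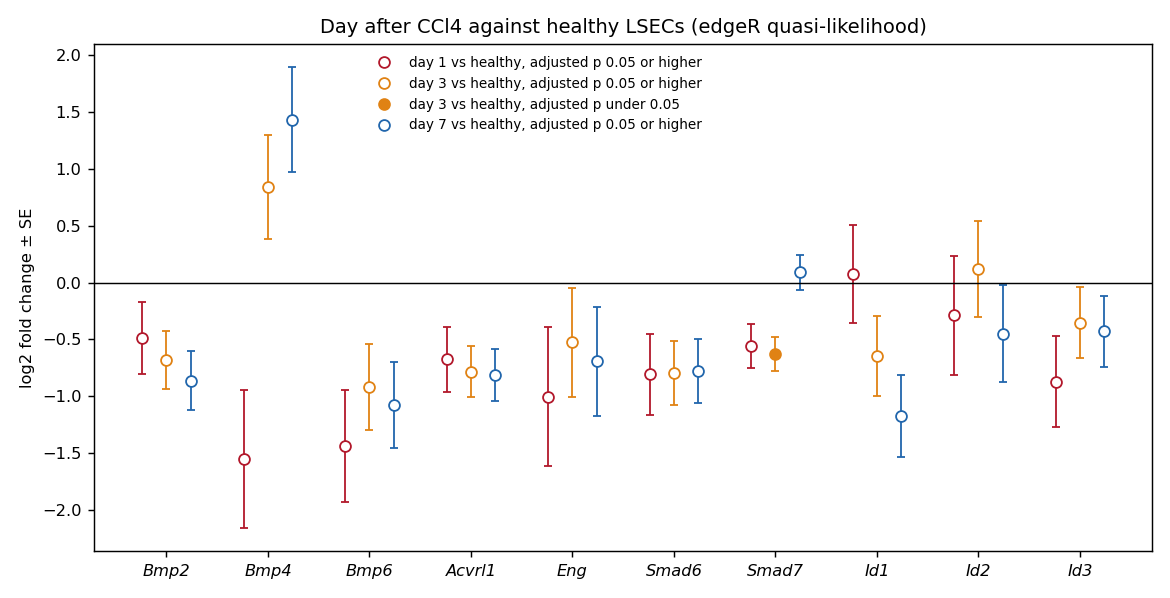
log2 fold change with its SE for each gene at day 1 (red), day 3 (orange) and day 7 (blue) against healthy LSECs, from edgeR's quasi-likelihood test on all 14 samples. The filled point is Smad7 at day 3 (-0.63 ± 0.15), the comparison with an adjusted p under 0.05, and Bmp4 is the gene whose value runs from -1.55 at day 1 to 1.43 at day 7.

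Of the ligands, Bmp2 (chr2:133552159-133562885, GRCm38, plus strand) stood at 2321, 1885, 1883 and 2134 CPM in healthy LSECs. It was at 1368 and 1569.6 CPM at day 1, at 827, 829.6, 1564 and 1922 CPM at day 3 and at 1141, 998, 1137 and 1251 CPM at day 7. Both day 1 samples and all day 7 samples lay below the healthy range, while day 3 replicate 4 lay inside it. The log2 fold change against healthy was -0.49 ± 0.32 at day 1, -0.68 ± 0.26 at day 3 and -0.86 ± 0.26 at day 7 (SE, edgeR adjusted p = 0.483, 0.132 and 0.0816).

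Bmp6 (chr13:38345107-38500302, plus strand), the other hepcidin-inducing ligand, was at 179, 156, 166 and 195 CPM in healthy LSECs and at 51.6 and 77.0 CPM at day 1. At day 3 it was at 41.1, 43.6, 111 and 173 CPM, and at day 7 at 85.2, 66.9, 83.9 and 94.8 CPM. The day 1 and day 7 samples lay apart from and below the healthy ones, and day 3 spread from the lowest value of the series to inside the healthy range. Its log2 fold change was -1.44 ± 0.49 at day 1, -0.92 ± 0.38 at day 3 and -1.07 ± 0.38 at day 7 (adjusted p = 0.128, 0.166 and 0.128 by edgeR). Within a sample, where no scaling enters, there were 7.73 to 9.11 Bmp6 counts per 100 Bmp2 counts in healthy LSECs, 3.77 and 4.90 in the day 1 samples, 4.97 to 8.99 in those of day 3 and 6.70 to 7.58 in those of day 7. The healthy samples lay above the day 1 and day 7 samples in this ratio, which was chosen after the values were seen and carries no test. Bmp6 shares 224 of its 3900 exon bases with Txndc5 on the other strand, and the use of strand in counting is not stated in the sources used here.

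Bmp4 (chr14:46383520-46390669, minus strand), a ligand that other liver cells also make, followed another course than Bmp2 and Bmp6. It was at 1.35, 1.06, 2.01 and 2.72 CPM in healthy LSECs and at 0.765 and 0.451 CPM at day 1. Later it was at 3.89, 2.30, 2.03 and 4.53 CPM at day 3 and at 1.75, 7.36, 4.19 and 5.95 CPM at day 7, from 41 to 526 counts per sample. Both day 1 samples were the lowest of the series, and day 7 replicates 2, 3 and 4 lay above every healthy sample. The log2 fold change against healthy was -1.55 ± 0.60 at day 1, 0.84 ± 0.46 at day 3 and 1.43 ± 0.46 at day 7, none of which passed (adjusted p = 0.188, 0.311 and 0.103 by edgeR). Between days, Bmp4 rose by 2.98 ± 0.65 on the log2 scale from day 1 to day 7 (adjusted p = 0.0158 by edgeR), the call among the 10 genes in that comparison, where 3.65% of all genes tested were called higher. Leaving out day 1 replicate 1 or day 1 replicate 2 ended this call (adjusted p = 0.159 and 0.187), with the difference at 3.46 and 2.69. Its 89 exon bases shared with Gm15217 on the other strand leave its low counts uncertain.

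Levels of Bmp4 went along with markers of hepatic stellate cells. The summed level of 12 stellate markers was 144 to 267 CPM in healthy samples, 104 and 127 CPM at day 1, 626 to 1908 CPM at day 3 and 347 to 5467 CPM at day 7. EdgeR called 1229 of all 26626 genes tested higher at day 3 and 582 at day 7, and of these 12 markers 8 and 10. Their defining genes Lrat, Des and Pdgfrb were detected in every sample, and Lrat reached 125 CPM at day 7 against 1.53 to 9.28 CPM in healthy samples. Day 7 replicate 1 had the lowest stellate sum of its group (347 CPM) and the lowest Bmp4, and day 7 replicate 2 had the highest of both. The part of stellate cell RNA in the Bmp4 difference was not tested.

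**Figure D3:**
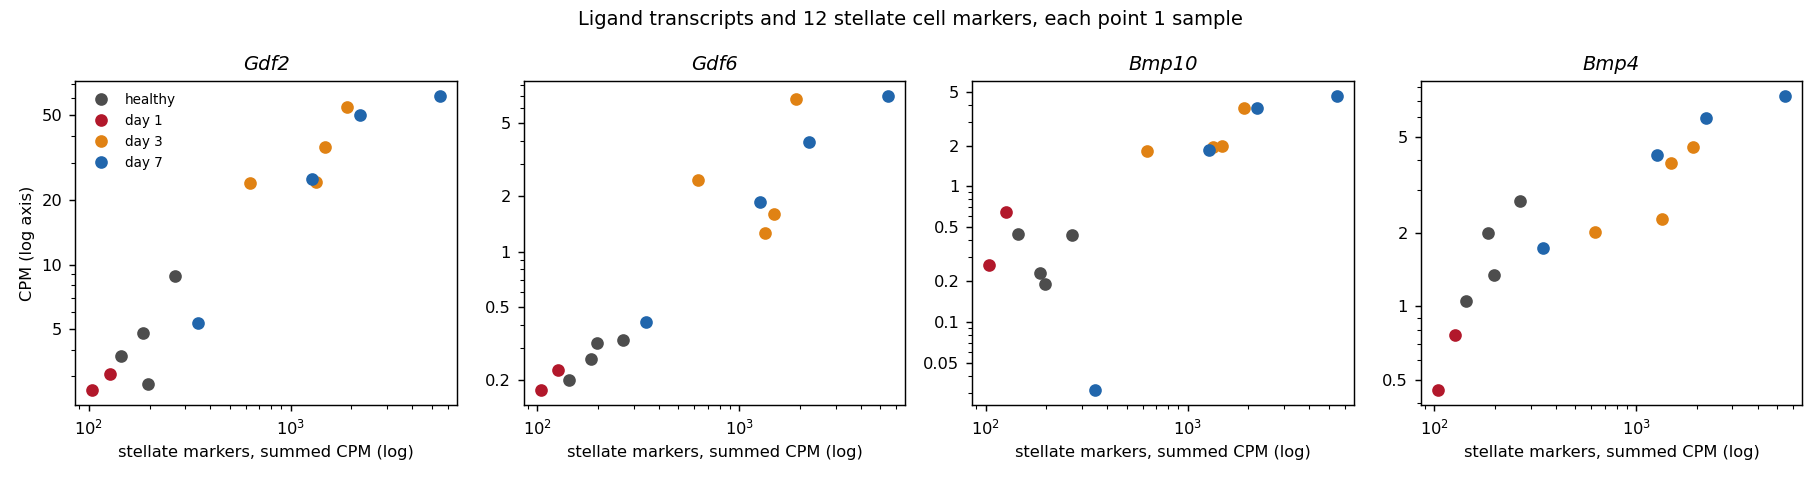
CPM (log axis) of the ligand genes Gdf2, Gdf6, Bmp10 and Bmp4 against the summed CPM of 12 hepatic stellate cell markers (log axis), each point 1 of 14 samples coloured by group. The day 1 samples have the lowest stellate sums (104 and 127 CPM) and the lowest Bmp4, and day 7 replicate 2 has the highest sum (5467 CPM) and the highest level of Gdf2, Gdf6, Bmp10 and Bmp4.

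Among the receptors, Acvrl1 (chr15:101128522-101145336, plus strand), which encodes ALK1, the type I receptor for BMP9 and BMP10 on endothelium, had 57.3, 72.3, 82.2 and 66.9 CPM in healthy LSECs. The samples were at 42.1 and 45.1 CPM at day 1, at 31.6, 30.3, 36.6 and 63.7 CPM at day 3 and at 44.9, 41.4, 40.0 and 32.9 CPM at day 7. All injured samples except day 3 replicate 4 were below every healthy sample. The log2 fold changes of -0.68 ± 0.29, -0.78 ± 0.23 and -0.81 ± 0.23 lay within 1 SE of each other and missed the threshold (adjusted p = 0.230, 0.0558 and 0.0700 by edgeR). Without day 3 replicate 4, Acvrl1 was called at day 3 (-1.17, adjusted p = 0.00397) and at day 7 (adjusted p = 0.0176). Leaving out any other single sample gave no call of Acvrl1. The fit without day 3 replicate 4 also called Bmp2, Bmp6 and Smad6 at both days. It called more of all genes tested at both days than the fit to all 14 samples did, so this gain is not particular to Acvrl1.

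Eng (chr2:32646595-32682669, plus strand), which encodes the co-receptor endoglin and whose upstream letters are shown above, was at 744 to 1234 CPM in healthy LSECs and at 423 and 539 CPM at day 1. It was at 252, 507, 558 and 1361 CPM at day 3 and at 195, 535, 777 and 878 CPM at day 7, so both later groups ran from far below to inside or above the healthy range. The log2 fold changes were -1.0 ± 0.61, -0.53 ± 0.48 and -0.69 ± 0.48 (adjusted p = 0.446, 0.572 and 0.429 by edgeR). There were 12.98 to 15 Eng counts per Acvrl1 count in each healthy sample, and after injury this number was 10.1 and 11.9 for day 1, 7.98 to 21.4 for day 3 and 4.35 to 26.7 for day 7. This ratio carries no test.

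Of the inhibitory SMADs, Smad7 (chr18:75367529-75395935, plus strand) gave the clearest course. It was at 98.9, 105, 119 and 90.7 CPM in healthy LSECs and at 63.2 and 77.6 CPM at day 1. Later it was at 78.7, 59.2, 58.9 and 71.3 CPM at day 3 and at 101, 117, 104 and 118 CPM at day 7. All 6 samples of days 1 and 3 were below every healthy and every day 7 sample, and the healthy and day 7 samples overlapped. Smad7 fell by 0.63 ± 0.15 on the log2 scale at day 3 (adjusted p = 0.0259 by edgeR) and rose again by 0.72 ± 0.15 from day 3 to day 7 (adjusted p = 0.0343), in a comparison where 0.413% of all genes tested were called higher. At day 1 the difference of -0.56 ± 0.19 did not pass (adjusted p = 0.130), and at day 7 it was 0.09 ± 0.15 (adjusted p = 0.784), with a 95% interval of -0.22 to 0.40 from its SE. The call at day 3 was lost without healthy replicate 1, 2 or 3 or day 3 replicate 2 (adjusted p of 0.0586 to 0.0849 by edgeR) and with the sample number as a block (0.0599). Both differences kept their sign without any 1 sample. From day 3 to day 7 the call was lost with no filter, the 2 groups alone, the sample number as a block and the LSEC marker scale (adjusted p = 0.0815, 0.175, 0.0813 and 0.163 by edgeR). The call between day 3 and day 7 was lost without healthy replicate 1, 2 or 3, day 1 replicate 1 or 2, day 3 replicate 2 or 3, or day 7 replicate 2, 3 or 4 (adjusted p of 0.0514 to 0.0997).

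Smad6 (chr9:63953076-64022059, minus strand), the inhibitory SMAD that acts mainly on BMP signals and whose start holds the palindrome printed above, was at 216, 290.3, 262 and 277 CPM in healthy LSECs and at 114 and 184 CPM at day 1. It was at 102, 91.6, 157 and 252 CPM at day 3 and at 133, 144, 162 and 170.0 CPM at day 7. All injured samples but day 3 replicate 4 were below the healthy range. Its log2 fold change was -0.81 ± 0.36, -0.79 ± 0.28 and -0.78 ± 0.28 at days 1, 3 and 7 (adjusted p = 0.252, 0.112 and 0.139 by edgeR), while Smad7 was back inside the healthy range by day 7. Per 100 Smad6 counts there were 32.7 to 45.7 Smad7 counts in healthy LSECs, 42.1 and 55.2 in the day 1 samples, 28.3 to 76.9 on day 3 and 64.4 to 80.8 on day 7, and all day 7 samples were above all healthy ones in this ratio, also chosen after the values were seen.

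**Figure D4:**
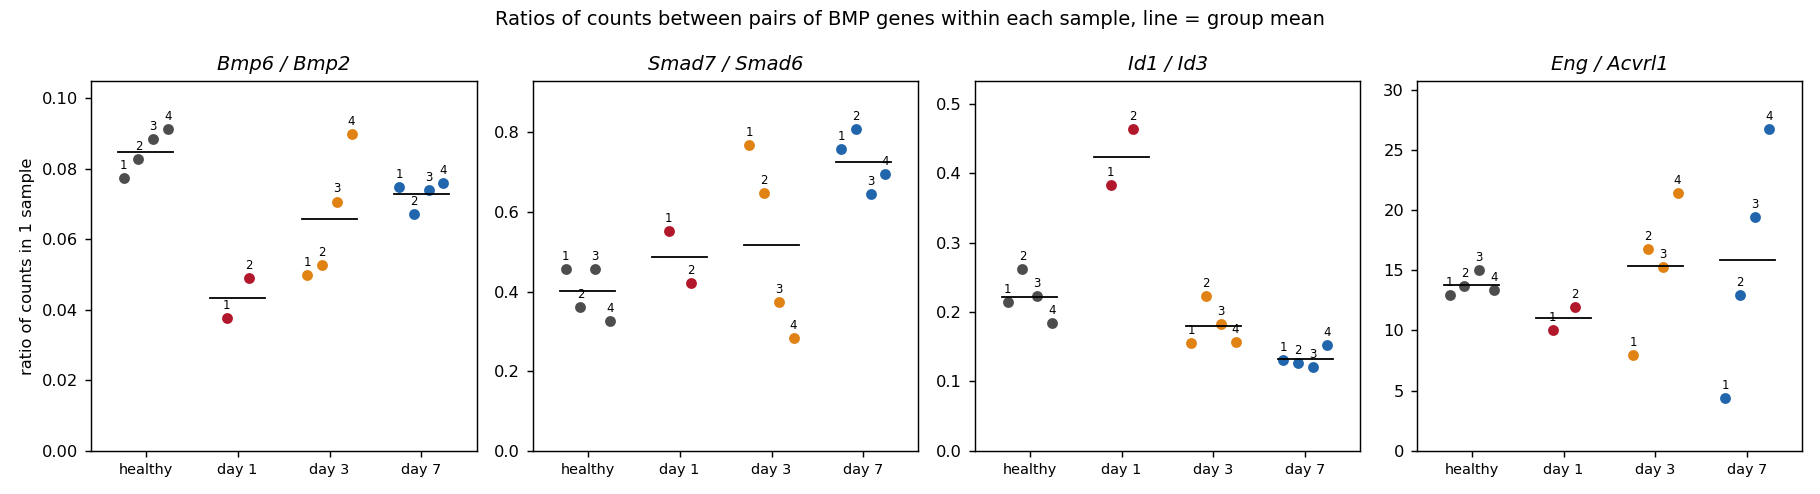
Ratio of the counts of 2 genes within each sample (linear axes from 0), with the replicate number at each point and a line at the group mean, for Bmp6 over Bmp2, Smad7 over Smad6, Id1 over Id3 and Eng over Acvrl1. All 4 day 7 samples lie above the healthy ones for Smad7 over Smad6 (64.4 to 80.8 against 32.7 to 45.7 per 100) and below them for Id1 over Id3 (12.1 to 15.3 against 18.4 to 26.3 per 100).

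The Id genes encode inhibitors of basic helix-loop-helix transcription factors and are the standard early targets of BMP SMADs. Id1 (chr2:152736251-152737410, plus strand) was at 234, 301, 275 and 189 CPM in healthy LSECs and at 205 and 321 CPM at day 1. It was at 225, 250.2, 95.6 and 67.7 CPM at day 3 and at 125, 108, 87.5 and 122 CPM at day 7. The day 1 samples fell around the healthy range and every day 7 sample was below it. The log2 fold change was 0.07 ± 0.43 at day 1, -0.65 ± 0.35 at day 3 and -1.17 ± 0.36 at day 7 (adjusted p = 0.973, 0.314 and 0.0875 by edgeR).

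Id3 (chr4:136143497-136145755, plus strand) was at 1088, 1147, 1232 and 1028 CPM in healthy LSECs and at 535 and 692 CPM at day 1. It was at 1445, 1121, 524 and 433 CPM at day 3 and at 960.0, 855, 722 and 801 CPM at day 7. Thus day 1 and day 7 were below the healthy range, and day 3 held both the highest and the lowest sample of the series. The log2 fold change was -0.87 ± 0.40, -0.35 ± 0.31 and -0.43 ± 0.31 at days 1, 3 and 7 (adjusted p = 0.271, 0.565 and 0.459 by edgeR). There were 18.4 to 26.3 Id1 counts per 100 Id3 counts in healthy LSECs, 38.3 and 46.4 on day 1, 15.6 to 22.3 on day 3 and 12.1 to 15.3 on day 7. The day 1 samples lay above and the day 7 samples below the healthy ones in this ratio, and those of day 3 overlapped them. Like the other ratios, it was chosen after the values were seen and carries no test.

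Id2 (chr12:25093799-25097140, minus strand), the gene with the GC-rich motif printed above, was at 659.8, 942, 887 and 601 CPM in healthy LSECs and at 662 and 602 CPM at day 1. It was at 1542, 1156, 392 and 272 CPM at day 3 and at 642, 541, 596 and 485 CPM at day 7. No group was apart from the healthy one, and the log2 fold changes were -0.29 ± 0.52, 0.12 ± 0.42 and -0.45 ± 0.42 (adjusted p = 0.863, 0.900 and 0.580 by edgeR). Its sign at day 3 was not stable, at -0.08 with no filter on low counts and at -0.45 to 0.30 when 1 sample was left out.

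Most of the 10 genes parted at day 3 along the split of that group. In replicates 1 and 2, which had the high monocyte and neutrophil marker sums given above, 3 genes (Id1, Id2 and Id3) were above and 5 (Bmp2, Bmp6, Acvrl1, Eng and Smad6) below the values of replicates 3 and 4, while Bmp4 and Smad7 were mixed. The share of all genes tested that part in this way was not counted, and 2 samples part easily from 2 others. These counts therefore show nothing particular to the 10 genes. The defining leukocyte genes Ptprc, Itgam and S100a8 were detected in every sample, and S100a8 ran from 3.21 to 992 CPM within day 3. With replicates 1 and 2 alone, a choice made after seeing the data, edgeR called 6 of the 10 genes at day 3 and 23.8% of all genes, and the log2 fold changes of the 6 were -1.43 for Bmp2, -2.16 for Bmp6, -1.30 for Acvrl1, -1.56 for Smad6, -0.71 for Smad7 and 0.68 for Id2. With replicates 3 and 4 alone it called 4 of them and 9.72% of all genes, with -0.69 for Smad7, -1.64 for Id1, -1.24 for Id2 and -1.26 for Id3. The pairs were formed after their values were seen to part, so these calls describe the split and support no direction. The part of leukocyte RNA, of the LSEC marker level and of library complexity in these values was not tested.

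Of 54 other genes of the BMP pathway, grouped by role, 48 passed the filter on low counts, and Gdf5, Bmpr1b, Chrdl2, Sostdc1, Tll1 and Msx2, with at most 11 counts in any sample, did not. Against healthy LSECs edgeR called 4 of the 48 at day 1, of which 1 was higher, 4 at day 3, of which 2 were higher, and 3 at day 7, of which 2 were higher. Of all genes tested, 4.06, 7.19 and 3.18% were called in either direction at these days. Their median log2 fold change was -0.24, -0.02 and 0.22 at days 1, 3 and 7. Of the 13 receptor, co-receptor and signal SMAD genes tested, edgeR called 0 at each day, with 3, 4 and 2 at an unadjusted p under 0.05 at days 1, 3 and 7 (17.9%, 22.2% and 21.1% of all genes). DESeq2 called 2 of them at each day (12.0%, 14.8% and 10.6% of all genes) and limma-voom 2, 5 and 4 (16.2%, 27.3% and 26.5%). Bmpr2, the type II receptor that partners ALK1, was at 146 to 218 CPM in healthy LSECs and at 230.3 and 277 CPM at day 1, apart but not called (adjusted p = 0.194 by edgeR). Smad1 (91.5 to 101 CPM healthy), Smad5 (23.9 ± 2.86 CPM healthy) and Smad4 (98.7 to 105 CPM healthy), which carry the signal, were at 43.9 to 118, 14.4 to 28.1 and 59.6 to 117 CPM in the injured samples.

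**Figure D5:**
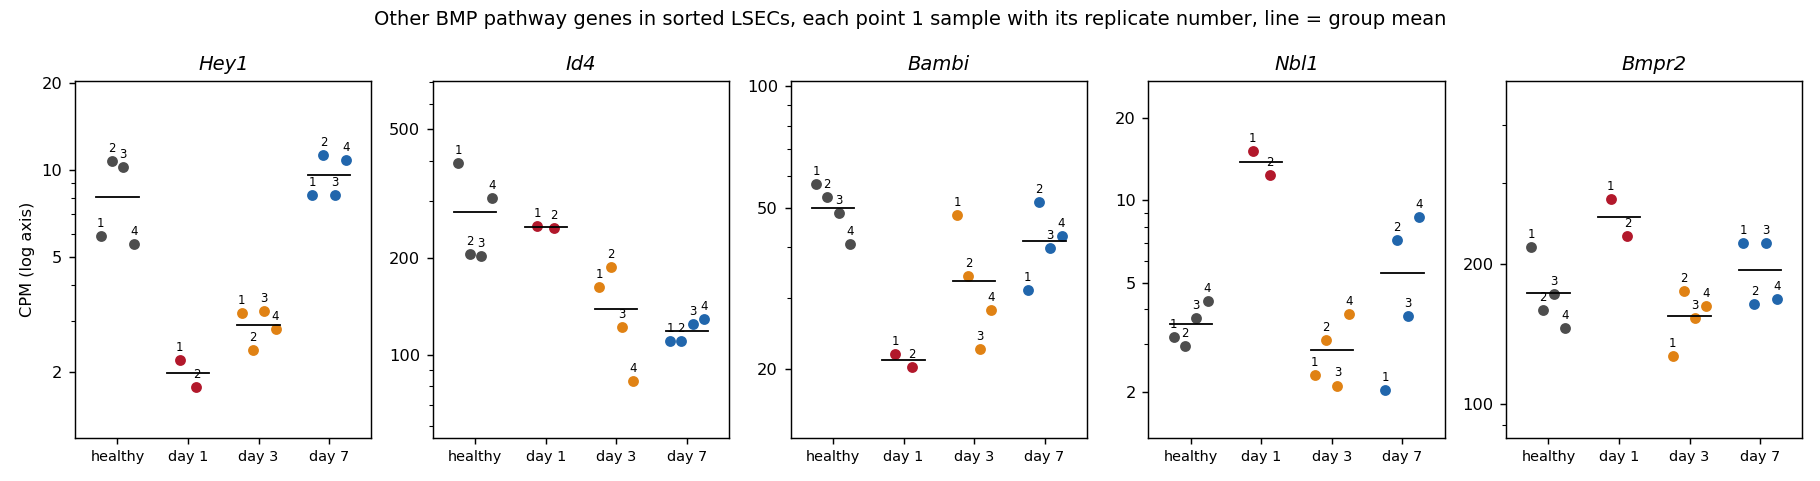
CPM (log axis) of the BMP pathway genes Hey1, Id4, Bambi, Nbl1 and Bmpr2 in each of 14 samples by group, with the replicate number at each point and a line at the group mean. Hey1 at day 1 and day 3 lies between 1.77 and 3.25 CPM, below the healthy samples at 5.54 to 10.7 CPM, and Nbl1 is highest at day 1.

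Of 9 ligand genes tested, edgeR called Gdf2 and Gdf6 higher at days 3 and 7. Of all 26626 genes tested, 1229 and 582 were called higher at these days. Gdf2, which encodes BMP9, the ligand of ALK1 that stellate cells are known to make, was at 2.75, 3.74, 4.78 and 8.87 CPM in healthy LSECs and at 3.07 and 2.58 CPM at day 1. It was at 35.4, 24.4, 24.1 and 54.9 CPM at day 3 and at 5.35, 61.8, 25.1 and 49.9 CPM at day 7. Every day 3 sample was above every healthy one, and day 7 replicate 1 stayed inside the healthy range. Gdf2 rose by 2.79 ± 0.61 on the log2 scale at day 3 (adjusted p = 0.0157 by edgeR) and by 2.82 ± 0.61 at day 7 (adjusted p = 0.0264). Gdf6 rose by 3.43 ± 0.76 at day 3 (adjusted p = 0.0166) and by 3.57 ± 0.76 at day 7 (adjusted p = 0.0256), from 0.200 to 0.332 CPM in healthy LSECs to 1.26 to 6.73 CPM at day 3 and 0.416 to 7.03 CPM at day 7. Bmp10, the other ALK1 ligand, was at 0.190 to 0.446 CPM in healthy LSECs, 1.81 to 3.76 CPM at day 3 and 0.0312 to 4.66 CPM at day 7, and was not called (adjusted p = 0.0717 and 0.0850). The stellate marker sums given for Bmp4 moved with Gdf2 and Gdf6 too, down to day 7 replicate 1. Bmp10 followed them less closely. It was at 0.646 CPM in day 1 replicate 1, whose stellate sum was 127 CPM, and at 0.0312 CPM (3 counts) in day 7 replicate 1, whose sum was 347 CPM. The part of stellate cell RNA in these ligands was not tested. The Gdf2 call was lost at day 3 without healthy replicate 1 or 2 (adjusted p of 0.0535 in each case) and at day 7 without healthy replicate 1, 2 or 3 or day 7 replicate 2, 3 or 4 (0.0508 to 0.0903). The Gdf6 call was lost at day 3 without healthy replicate 2 or 3 (0.0511 and 0.0564) and at day 7 without healthy replicate 1, 2 or 3 or day 7 replicate 2 or 4 (0.0604 to 0.0865).

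Of 6 target genes tested, edgeR called Hey1 lower at days 1 and 3 and Id4 lower at days 3 and 7. Of all 26626 genes tested, 436, 686 and 264 were called lower at days 1, 3 and 7. Hey1, a transcription factor gene that BMP9 and Notch signals switch on in endothelium, was at 5.89, 10.7, 10.2 and 5.54 CPM in healthy LSECs and at 2.19 and 1.77 CPM at day 1. It was at 3.18, 2.38, 3.25 and 2.80 CPM at day 3 and at 8.18, 11.2, 8.14 and 10.8 CPM at day 7. It fell by 2.03 ± 0.36 on the log2 scale at day 1 (adjusted p = 0.00662 by edgeR) and by 1.47 ± 0.27 at day 3 (adjusted p = 0.00734), while its day 7 samples overlapped the healthy ones, as those of Smad7 did. Without day 1 replicate 1 or 2 the call at day 1 was lost (adjusted p = 0.116 and 0.102), and with the LSEC markers as the scale the call at day 3 was lost (-1.05, adjusted p = 0.0517). Id4, the fourth Id gene, was at 393, 205, 203 and 307 CPM in healthy LSECs and at 252 and 247 CPM at day 1. It was at 162, 188, 122 and 82.9 CPM at day 3 and at 111, 110.0, 124 and 129 CPM at day 7. Id4 fell by 1.00 ± 0.26 at day 3 (adjusted p = 0.0357) and by 1.22 ± 0.26 at day 7 (adjusted p = 0.0264), and these calls were lost without healthy replicate 1, its highest sample (adjusted p = 0.113 and 0.0889), and at day 7 also without day 7 replicate 2 or 3 (0.0935 and 0.0583). At day 3 limma-voom gave -0.51 (adjusted p = 0.0972) and the LSEC marker scale -0.54 (adjusted p = 0.335).

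Among the inhibitors and modulators outside the SMADs, 12 extracellular and 8 intracellular or membrane genes were tested. EdgeR called 3 of them at day 1, beside 4.06% of all genes tested. Bambi, a decoy receptor, was at 57.3, 53.2, 48.5 and 40.6 CPM in healthy LSECs and at 21.7 and 20.2 CPM at day 1, and fell by 1.25 ± 0.30 on the log2 scale (adjusted p = 0.0318 by edgeR). Nbl1, a secreted BMP antagonist, was at 3.16, 2.95, 3.72 and 4.30 CPM in healthy LSECs and at 15.2 and 12.4 CPM at day 1, and rose by 1.96 ± 0.45 (adjusted p = 0.0253). Sost, the sclerostin gene, had 31, 23, 30 and 38 counts in healthy LSECs and 0 in both day 1 samples, at least 9.63-fold lower against a floor of 3 counts per library (adjusted p = 0.0324). Noggin (Nog), a secreted antagonist that binds BMPs and that falls outside the rule for named genes and was picked after its values were seen, had 3, 8, 0 and 3 counts in healthy LSECs and 175 and 146 counts at day 1, with an adjusted p of 0.0583 by edgeR and 0.00526 by DESeq2. Each of the Bambi, Nbl1 and Sost calls was lost without day 1 replicate 1 or 2 (adjusted p of 0.110 to 0.356) and without healthy replicate 1, 2 or 3 (0.0545 to 0.0709), that of Sost also without healthy replicate 4 (0.0606), and that of Bambi with the LSEC marker scale (-0.96, adjusted p = 0.246). Day 1 was also the time when 10 of 10 monocyte and neutrophil markers had both samples above every healthy one (5 of them called higher). Of all 26626 genes tested, 5334 had both day 1 samples above every healthy one and 644 were called higher. The sum of 6 markers of large vessel endothelium was then 2491 and 2961 CPM against 296 to 447 CPM in healthy samples. Of these 6 markers, 5 had both day 1 samples above every healthy one, and 2 were called higher. Cd34 went the other way, at 20.9 and 23.2 CPM at day 1 against 30.6 to 50.3 CPM in healthy samples. The part of these cells was not tested.

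The 10 genes did not share 1 profile. After each gene was centred on its own mean of log2 CPM, the root mean square difference over the 14 samples was taken between each gene and 12940 protein-coding genes with a mean of at least 1 CPM. Among the 10 genes themselves, Smad6 was the closest to Bmp2, Bmp6, Acvrl1 and Eng (0.247, 0.309, 0.246 and 0.495 on the log2 scale), and Acvrl1 was the closest to Smad6. Id2 and Id3 were closest to each other (0.331). Smad7 and Bmp4 stood apart, with their closest of the 10 at 0.457 and 1.03, against their own spread about the mean of 0.356 and 1.09. Among all genes, the closest to Bmp6 were Dll4, a Notch ligand of endothelium (0.176), and Foxd2 (0.226). The closest to Smad6 were Prpf40b (0.151) and Gata4, the transcription factor known to specify LSECs (0.175). Bmp2 was closest to Pomgnt1 and Usp46 (0.132 and 0.143), Acvrl1 to Hps6 and Dgka (0.178 and 0.189), and Eng to Vps52 and Tbkbp1 (0.239 and 0.328). Smad7 was closest to Stard4 and Stom (0.188 and 0.195), and Bmp4 to Smoc2 and Shroom3 (0.356 for each). Id1 was closest to C1galt1c1 and Ttc32 (0.213 and 0.256), Id2 to Arhgdib and Smpdl3a (0.213 and 0.230), and Id3 to Prkra and Hist3h2a (0.169 and 0.178). These are descriptions over samples that share depth and cell make-up.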

How the data were processed

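RNA of 14 samples of sorted LSECs was sequenced. Per the submitters' processing notes, reads were mapped to GRCm38 with STAR and handled with StringTie, and the authors deposited unnormalized read counts per Ensembl gene in 1 column per sample. Tool versions, annotation release and use of strand are not given in the sources used here. Symbols and exon lengths came from GENCODE vM21, which named 54495 of the 54524 genes. Groups came from the sample titles. The labels do not name the animals, so p-values measure the spread between these samples. Replicates differed far beyond counting noise (chi-square per degree of freedom of 75.7 to 1210.4), and none was merged.

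Genes passing filterByExpr (minimum count 10, minimum total 15) numbered 26626. Counts were TMM-scaled and tested with edgeR 4.0.16 (R 4.3.3, quasi-likelihood) in a model that fits 1 mean per group to the 14 samples. P-values were adjusted by Benjamini-Hochberg over the genes tested, with 0.05 as the limit. The SE of a log2 fold change is its size over the root of the F statistic. Log2 CPM used a prior count of 2. Below 3 counts a gene was taken as not detected, a floor for counting error only, since reads carry no molecular identifiers. The fit was tested on simulated data with 200 changed genes. As alternatives, limma 3.58.1 (voom, sample weights) and DESeq2 1.42.0 were run, and other scalings and filters, models of the 2 groups alone, the sample number as a block and leaving out samples were tried.

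Named were all 10 genes, each other pathway gene called against healthy LSECs, Gdf2, Bmp10, Bmpr2, Smad1, Smad5 and Smad4, and per gene the 2 closest profiles. The genes, lists and markers were chosen with earlier results of these data known. The promoter of Smad7 is not shown here.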

Additional observations from a re-analysis of the deposited data

Results flagged for a closer look

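Of the 10 genes, 2 passed in a direct test between days, beside the comparisons with healthy LSECs. Smad7 differed between day 7 and day 3 by 0.716 on the log2 scale (higher in 4 of 4 day 7 samples than in every day 3 sample, as were 1000 of all 26626 genes tested). This call was lost in several other fits and without single samples, as given above. Whether its effects against healthy LSECs at these days differ therefore depends on the fit. Bmp4 differed between day 7 and day 1 by 2.98 (higher in 4 of 4 day 7 samples than in both day 1 samples). So were 5443 of all 26626 genes tested, and 8.04% of all genes were called in this comparison. The Bmp4 call did not hold without either day 1 sample, as given above. Of the other pathway genes named, edgeR also called Gdf2 and Nbl1 between day 3 and day 1, Hey1 between day 7 and day 3, and Gdf2, Gdf6, Id4, Hey1 and Sost between day 7 and day 1. Of 30 groups of 4 samples examined for the 10 genes, 0 held a sample far from the others by Dixon's criterion. This criterion looks for 1 sample apart from the rest, so it cannot show a split of 2 against 2 samples like that of day 3.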

How the results depend on the processing

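Calls were few and depended on the fit more than directions did. Of 800 values recomputed for the 10 genes, 691 kept their direction and side of the threshold, 22 lost a call, 68 gained one and 19 changed sign. Of 298 for the other pathway genes, 245 were kept, 47 lost a call and 6 gained one. The cause was not tested. Scaling to the LSEC markers and leaving out 2 day 3 samples together were chosen after seeing the data. Depth limits mainly Bmp4, Bmp10, Gdf6, Nog and Sost.

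In the order day 1, day 3 and day 7 against healthy, then day 3 against day 1, day 7 against day 3 and day 7 against day 1, edgeR called 0, 1, 0, 0, 1 and 1 of the 10 genes. DESeq2 called 2, 2, 4, 1, 1 and 2, limma-voom 5, 6, 7, 3, 4 and 3, and models of only the 2 groups 3, 1, 5, 0, 0 and 3. Of all genes, in the same order, edgeR called 4.06, 7.19, 3.18, 2.54, 1.77 and 8.04%, DESeq2 12.0, 14.8, 10.6, 9.42, 6.33 and 18.2%, limma-voom 16.2, 27.3, 26.5, 12.6, 22.5 and 28.6%, and models of only the 2 groups 10.2, 5.14, 14.6, 0.762, 0.00451 and 19.0%. RLE scaling and library size only each gave 0, 1, 0, 0, 1 and 2. Of all genes, RLE scaling called 4.04, 7.12, 2.98, 2.53, 1.46 and 7.63%, and library size only 3.59, 6.04, 2.68, 2.08, 1.08 and 6.05%. Without the filter there were 0, 2, 0, 0, 0 and 1, and with at least 10 counts in every sample 0, 2, 0, 1, 1 and 2. The first called 1.86, 3.47, 1.34, 1.18, 0.352 and 3.50% of all genes, and the second 8.11, 14.6, 6.95, 5.12, 3.77 and 14.7%. Scaled to LSEC markers there were 0, 0, 0, 0, 0 and 1 (3.90, 9.25, 5.95, 1.75, 0.372 and 5.14% of all genes). With day 3 replicates 3 and 4 left out together there were 4, 6, 5, 3, 6 and 3, and with day 3 replicates 1 and 2 left out together 2, 4, 5, 2, 2 and 3. These fits called 10.4, 23.8, 15.4, 10.6, 23.3 and 19.6% and 7.85, 9.72, 9.28, 7.74, 2.57 and 14.8% of all genes. Leaving out 1 sample at a time gave 0 to 1, 0 to 5, 0 to 5, 0 to 1, 0 to 1 and 0 to 3. The top of these ranges came from leaving out day 3 replicate 4 (5 genes at day 3, 5 at day 7, 1 at day 1 and 3 for day 7 against day 1), and for day 3 against day 1 from day 7 replicate 1, without which 1 gene was also called at day 7. Leaving out day 3 replicate 4 also raised the number of all genes called in every comparison. Without day 3 replicate 1 or 2, 2 genes were called for day 7 against day 1, beside 2124 of 25650 and 2143 of 25614 among all genes. The Smad7 call between day 3 and day 7 was lost without healthy replicate 1, 2 or 3, day 1 replicate 1 or 2, day 3 replicate 2 or 3, or day 7 replicate 2, 3 or 4.

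Of the other pathway genes, edgeR called 4, 4 and 3 at days 1, 3 and 7. DESeq2 called 10, 9 and 8, limma-voom 9, 16 and 13, models of only the 2 groups 8, 4 and 4, and the fit with at least 10 counts in every sample 4, 5 and 5. Scaled to LSEC markers there were 3, 5 and 7, and with day 3 replicates 3 and 4 left out together 7, 14 and 5. The shares of all genes called in each of these fits are those given above. Leaving out 1 sample gave 0 to 6, 2 to 7 and 0 to 8. The lowest counts came without either day 1 sample (day 1), without healthy replicate 1 or 2 (day 3) and without healthy replicate 1 or day 7 replicate 2 (day 7), and the highest without day 3 replicate 4 (days 1 and 3) and day 7 replicate 1 (days 3 and 7).

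The sign of the log2 fold change turned for Id1 at day 1 (limma-voom -0.053), Id2 at day 3 (no filter -0.076, day 3 replicates 1 and 2 left out together -1.24), Smad7 at day 7 (no filter -0.044), Id3 at day 3 (day 3 replicates 3 and 4 left out together 0.068, LSEC markers 0.19) and Id2 at day 1 (LSEC markers 0.0042). Leaving out 1 sample gave -0.31 to 0.33 for Id1 at day 1 and -0.45 to 0.30 for Id2 at day 3. None of these values was called, except Id2 without day 3 replicates 1 and 2.

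The sample numbers did not pair the samples. Of 18 pairs with the same number in different groups, 0 had deviations that correlated by over 0.1 (range -0.232 to 0.0962), and 0 of 14 samples correlated best with their own number. With the replicate block, 0, 0, 0, 0, 0 and 1 of the 10 genes were called in the order above and 3, 3 and 1 of the other pathway genes, and Id1 at day 1 (-0.26) and Id2 at day 3 (-0.11) turned sign. Of all genes, the fit with this block called 2.23, 5.20, 1.63, 1.17, 0.916 and 4.07%.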
